A study of Homo sapiens with 4 samples.

Results

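The HOX genes of the human genome lie in 4 clusters, and accessible chromatin in and around these clusters was examined in Ishikawa cells, an established line from a human endometrial adenocarcinoma. The members were the called regions of 4 ATAC-seq peak lists that overlapped 1 of 4 windows on hg19 by at least 1 bp. The windows, each a cluster with its flanks, were 27.08 to 27.30 Mb of chromosome 7 for HOXA, 46.55 to 46.86 Mb of chromosome 17 for HOXB, 54.28 to 54.50 Mb of chromosome 12 for HOXC and 176.90 to 177.11 Mb of chromosome 2 for HOXD. Of 15269 called regions in the 4 lists, 1 was a member. It came from the dexamethasone library and lay in the HOXA window.

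ATAC-seq marks open DNA with a transposase. Cells kept in medium without phenol red and with serum stripped of steroids received DMSO as vehicle, dexamethasone at 100 nM (a synthetic glucocorticoid), estradiol at 10 nM (the natural estrogen), or dexamethasone at 100 nM together with estradiol at 10 nM, each for 1 hour. Every treatment had a single library, which leaves no replicate spread, and no treatment comparison was tested. The vehicle list held 1923 regions, that of dexamethasone 8428, that of estradiol 4772 and that of the combination 146, from 8240912 to 20185339 tags after duplicate removal. The combination library was the shallowest and had the shortest modelled fragment, 51 bp against 84 to 104 bp in the others. A peak list holds neither RNA levels nor markers of cell identity, so the identity of the cells was not checked here.

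HOX proteins are homeodomain transcription factors that give cells their place along the body axis, and the order of the genes in a cluster follows the order of their expression along that axis. In the female reproductive tract the 5′ genes of the HOXA cluster are laid out in this way, with HOXA9 in the oviduct, HOXA10 in the uterus, HOXA11 in the uterus and cervix, and HOXA13 in the upper vagina. HOXA10 and HOXA11 stay active in the adult endometrium, respond to ovarian steroids and are needed for implantation. HOXC10 and HOXD10 are the paralogues of HOXA10 in their clusters, and HOXB7 and HOXB9 are genes of the HOXB cluster that are overexpressed in several carcinomas.

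The table of RefSeq genes lists 39 protein-coding HOX genes, 11 in HOXA, 10 in HOXB, 9 in HOXC and 9 in HOXD. On chromosome 7 the genes considered here follow each other from the low to the high end as HOXA9, HOXA10, HOXA11 and HOXA13. That table is on GRCh38 and the peak lists are on hg19, so it was used for gene order only. The hg19 interval from 27.21 to 27.23 Mb was taken for HOXA10 and HOXA11, and no other HOX gene was placed by position.

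The sequences upstream of HOXA10 and HOXA11 are shown because these are the HOX genes of the uterine lining, and no list held a region in their interval. They are the 250 bases before each start from RefSeq (GRCh38.p14, minus strand of chromosome 7, written 5′ to 3′), and HOXA10 has a pair of starts in that table. Capitals mark matches to the motifs described after them.
HOXA10, start nearer HOXA11: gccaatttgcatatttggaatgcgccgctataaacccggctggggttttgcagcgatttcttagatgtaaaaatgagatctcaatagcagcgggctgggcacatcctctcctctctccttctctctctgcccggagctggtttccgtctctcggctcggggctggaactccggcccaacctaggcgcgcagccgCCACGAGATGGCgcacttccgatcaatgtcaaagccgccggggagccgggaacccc
HOXA10, start nearer HOXA9: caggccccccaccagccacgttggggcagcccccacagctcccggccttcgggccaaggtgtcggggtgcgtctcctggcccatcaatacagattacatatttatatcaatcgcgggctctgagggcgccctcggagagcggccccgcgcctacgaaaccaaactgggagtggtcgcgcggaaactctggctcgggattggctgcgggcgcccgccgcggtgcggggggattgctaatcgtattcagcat
HOXA11: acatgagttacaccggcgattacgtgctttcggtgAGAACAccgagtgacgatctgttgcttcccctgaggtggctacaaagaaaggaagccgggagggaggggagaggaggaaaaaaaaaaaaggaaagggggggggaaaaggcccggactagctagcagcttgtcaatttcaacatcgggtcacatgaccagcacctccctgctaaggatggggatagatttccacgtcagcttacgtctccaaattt

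Relative to their base content, these upstream sequences held more CpG than the median promoter, HOXA11 by the smallest margin. The ratio of observed to expected CpG was 0.884 and 0.903 at the HOXA10 starts and 0.683 at HOXA11, beside a median of 0.558 over all 35116 RefSeq promoter sequences and 0.888 over the 27 that belong to 20 of the 39 HOX genes. The G and C content was 58.8% and 65.2% at the HOXA10 starts and 51.6% at HOXA11, against a median of 58% over all promoters. Of the 8 genes considered, HOXA9, HOXA10, HOXA11, HOXA13 and HOXD10 had an entry and HOXB7, HOXB9 and HOXC10 were without.

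Motifs were searched on both strands, and a match describes letters, not a bound site. The hexamer AGAACA of the glucocorticoid response element was found 215 bases before the HOXA11 start. As TGTTCT on the strand of the gene, it was also found 87 bases before the HOXA9 start, in a sequence not shown here. It occurred in 12.4% of all promoters and in 3 of the 27 HOX promoters. The core of the CTCF motif (CCA, any 2 bases, AG, any 2 bases, GGC) is named for a factor that separates chromatin domains. A match was found 56 bases before the HOXA10 start that is nearer HOXA11. This core occurred in 2.02% of all promoters and in 1 of the 27 HOX promoters. The complete glucocorticoid element (AGAACA, any 3 bases, TGTTCT), which contains the hexamer on both strands, and the estrogen response element (AGGTCA, any 3 bases, TGACCT) each occurred in 0.00285% of all promoters and in 0 of the 27 HOX promoters. The AP-1 letters TGANTCA occurred in 6.57% of all promoters and 0 of the 27, the HOX-PBX letters TGATTNAT in 2.48% and 2 of the 27, and the FOX letters TGTTTAC in 2.98% and 2 of the 27. Matches to these last 3 motifs were found in 0 of the 6 promoter sequences of HOXA9, HOXA10, HOXA11, HOXA13 and HOXD10. No hg19 sequence was used here, so the called region itself was not searched.

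The region in the HOXA window lay on chromosome 7 from 27183319 to 27183407 (hg19), with its summit at 27183375. It sat 103 kb above the lower edge of the window and 26.6 kb below the HOXA10 and HOXA11 interval, on the side of that interval that holds HOXA9. Without an hg19 annotation it was not assigned to a gene, exon or intron. Its height in the dexamethasone library was 15 tags, counted without scaling to depth. The authors' fold enrichment, the height over the local background of the same library with 1 added to each, was 6.88. Their −log10 p and −log10 q were 11.9 and 8.49. These scores are the authors' own and were used within that list.

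Within the dexamethasone list this was a weak region. Only 80 of the 8428 regions had a smaller −log10 p (0.949%), and 114 had a smaller fold enrichment (1.35%). The list medians were 19.7 for −log10 p, 10.04 for fold enrichment and 21 tags for height. The region was 89 bp long, which equals the modelled fragment length and was the shortest length in the list, shared with 528 other regions, where the median was 152 bp. The local background derived from its height and fold enrichment was 1.33 tags, 2.69 times the 0.494 tags expected from a uniform spread of the library over the genome, and above that of 64.9% of the list. With that background a height of at least 14 tags was needed to pass the p cutoff of 1e-10, so the region passed it by 1 tag.

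**Figure D1:**
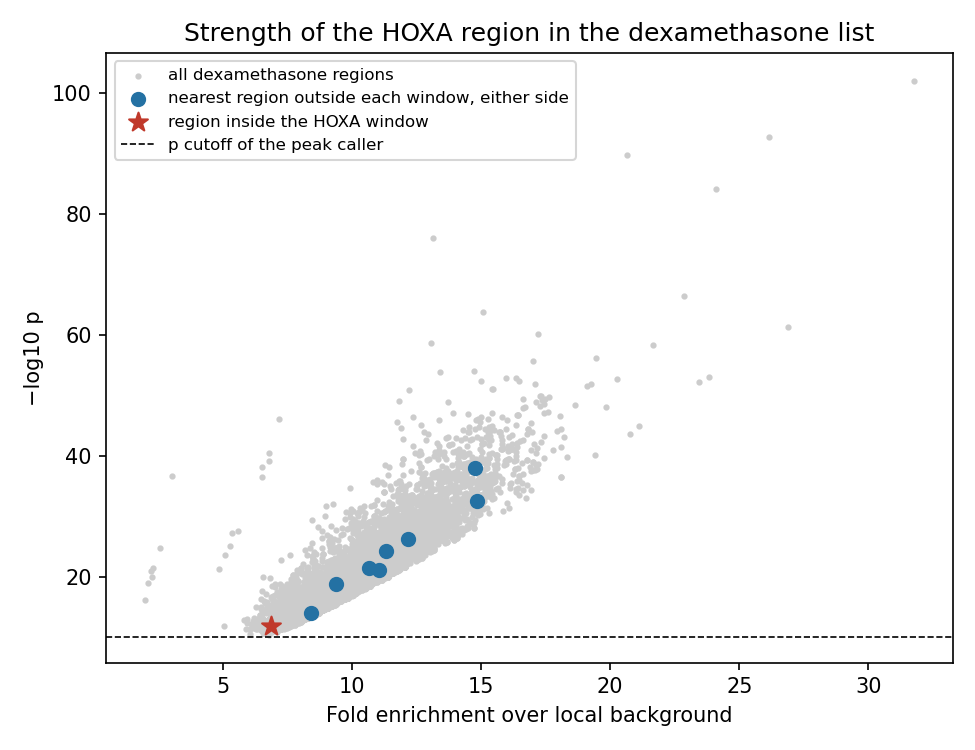
Fold enrichment over local background (x axis) against −log10 p (y axis) for the 8428 regions of the dexamethasone library, 1 point per region, with the peak caller's p cutoff as a dashed line. The star is the region in the HOXA window, at 6.88-fold and 11.9, and the larger points are the nearest region outside each HOX window on either side, all of them at higher fold enrichment, from 8.41 to 14.8.

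The region had no counterpart in the 3 other lists. Over the dexamethasone list, 78.0% of regions had no vehicle counterpart, 50.3% had none with estradiol, 98.8% had none with the combination, and 47.9% had none in any other list. The vehicle, estradiol and combination lists were shorter, at 1923, 4772 and 146 regions against 8428, which limits how many could have a counterpart. Of the 264 dexamethasone regions within 1 unit of its −log10 p, 11 were called with vehicle (4.17%, exact 95% interval 2.098 to 7.33), 40 with estradiol (15.2%, 11.1 to 20.1) and 0 with the combination, which allows up to 1.39%, and 82.6% were in no other list (77.5 to 87.0). Most dexamethasone regions of like strength thus shared this pattern of calls, with the region itself counted among the 264. These intervals cover counting error only.

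The lists hold called regions only, so the tags at this place in the other libraries are unknown. If it had the same tag density in each library, scaled by tags and fragment length, its height would be 12.5 tags with vehicle, where 13 were needed to pass, and 4.73 tags with the combination, where 9 were needed. With estradiol it would be 19.1 tags, where 15 were needed. The part of depth in the missing calls was not tested, and the vehicle values differ by less than 1 tag. The scaling assumes equal signal over background in all libraries, and the height of a called region is chosen for being high.

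The interval of HOXA10 and HOXA11 held 0 called regions in each of the 4 libraries. The nearest vehicle region above it began 473 kb away, on chromosome 7 from 27702606 to 27702760, with 24 tags and a 13.3-fold enrichment. The same place was called with dexamethasone (29 tags, 14.8-fold) and estradiol (21 tags, 11.1-fold), so 3 of the 4 libraries called a region on that side at the same distance. Below the interval the libraries differed. The nearest region was the one described above with dexamethasone, at 26.6 kb, one ending 306 kb away with estradiol (17 tags, 8.27-fold), and one ending 1308 kb away with vehicle (23 tags, 10.03-fold). The combination had its nearest region 4156 kb below.

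The HOXB window, which holds HOXB7 and HOXB9, had 0 called regions in every list. The nearest lay above it, at 34.4 kb, and was called with dexamethasone (20 tags, 11.1-fold, chromosome 17 from 46894374 to 46894601) and with estradiol (18 tags, 10.1-fold). With vehicle the nearest began 110 kb above, at 46969916 (13 tags, 7.87-fold), and was also called with both single hormones.

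The HOXC window, with HOXC10, also had 0 called regions in every list, while its surroundings held the most of the 4 clusters. Its flanks of 500 kb on either side held 10 vehicle regions, 18 dexamethasone regions, 12 estradiol regions and 0 combination regions. The closest below was called in vehicle, dexamethasone and estradiol alike, 159 kb from the window, with 24, 37 and 36 tags and fold enrichments of 11.8, 14.8 and 13.6. On chromosome 12 it spanned 54121247 to 54121514 in the dexamethasone list. Above the window the closest was a dexamethasone region at 82.8 kb that no other list held (22 tags, 10.7-fold).

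The HOXD window, with HOXD10, also had 0 called regions in every list. Its flanks of 500 kb on either side held 3 dexamethasone regions and 1 estradiol region, and 0 were called in the other libraries. The closest was a dexamethasone region 32.9 kb below the window, on chromosome 2 from 176866933 to 176867138 (21 tags, 9.39-fold), which no other list held. The next, 317 kb above, was called with dexamethasone (26 tags, 12.2-fold) and estradiol (18 tags, 8.53-fold). The flanks of HOXA held 1 region with vehicle, 2 with dexamethasone and 2 with estradiol, and those of HOXB 2, 7 and 5.

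**Figure D2:**
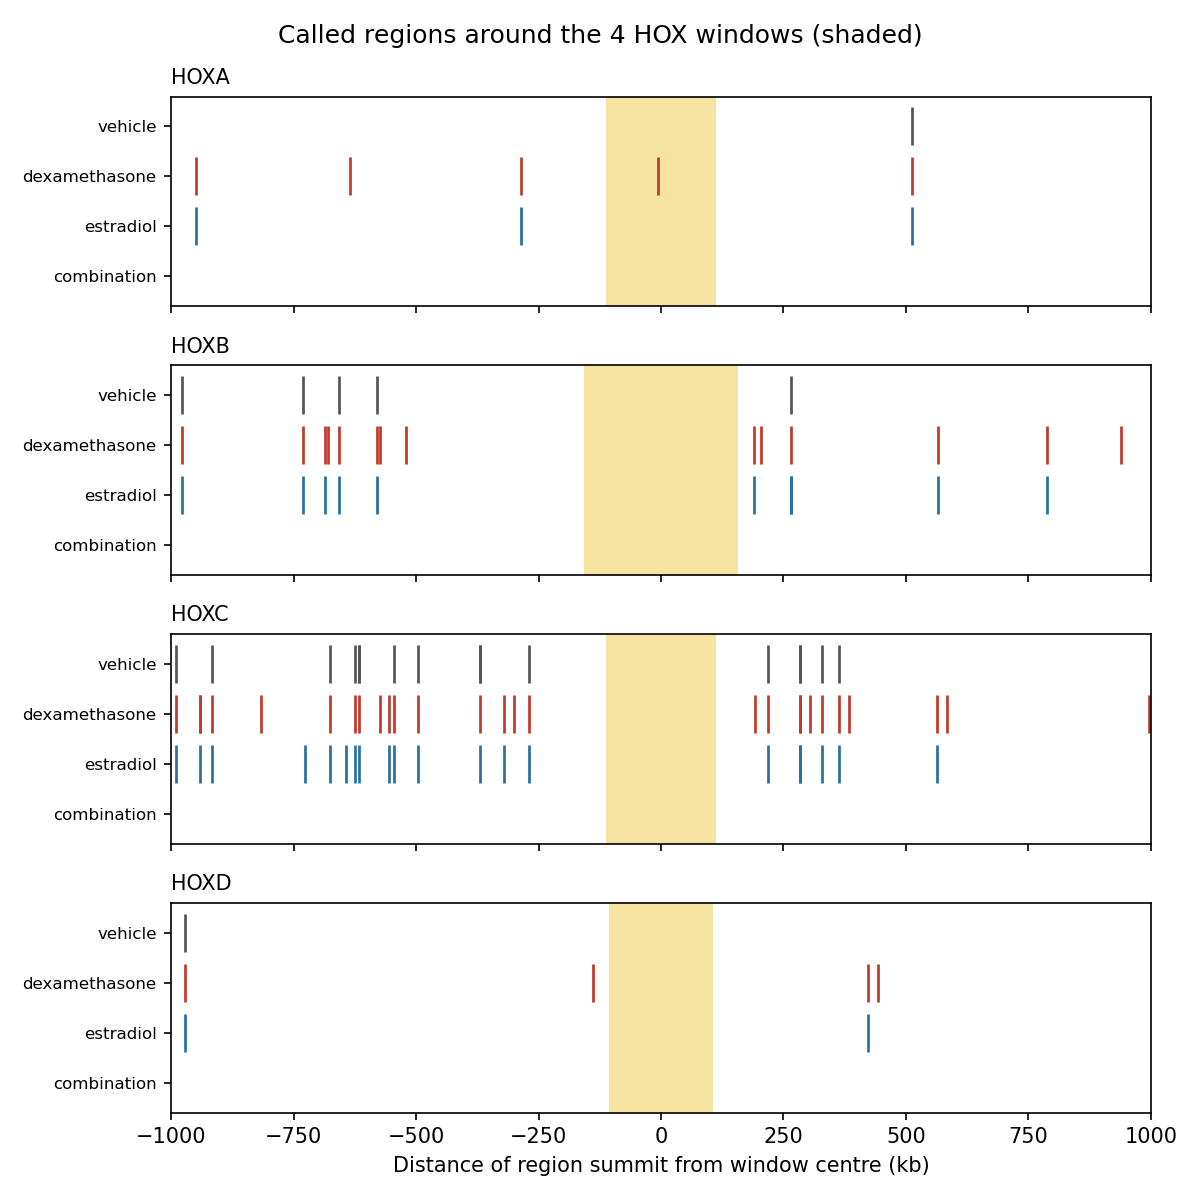
Called regions around each HOX window, with the distance of the region's summit from the window centre in kb on the x axis and 1 row of ticks per library, 1 tick per region; the window is shaded. Inside the shaded windows there is 1 tick, in the dexamethasone row of HOXA, while the 1000 kb on either side of the HOXC centre hold 16 vehicle, 27 dexamethasone and 20 estradiol regions.

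Whether so few calls set the clusters apart was read against the density of each list. The 4 windows span 0.96 Mb. At the mean density over the 2.7 Gb effective genome, the windows would hold 0.684 vehicle, 2.997 dexamethasone, 1.70 estradiol and 0.0519 combination regions. The observed density of dexamethasone regions was 1.04 per Mb (exact Poisson 95% interval 0.0264 to 5.80), which includes the genome mean of 3.12 per Mb. A count of 0 in the other libraries allows up to 3.125 regions per Mb, above the genome means of 0.712 per Mb for vehicle, 1.77 for estradiol and 0.0541 for the combination. At these list lengths a lower density of called regions in the HOX windows than the genome mean was not detectable in any library. That mean takes in gene-poor sequence, and the windows were not set beside other gene-dense sequence. The clusters were also set beside their own surroundings. The 4 Mb within 500 kb of the windows held 3.25 vehicle, 7.5 dexamethasone, 5 estradiol and 0 combination regions per Mb. By exact Poisson 95% intervals the windows allow up to 5.80 dexamethasone regions per Mb and, for a count of 0, up to 3.84 vehicle or estradiol regions per Mb. The flank densities of dexamethasone and estradiol lay above these bounds. The bounds leave out the counting error of the flank densities themselves, and the flanks of 500 kb were chosen after the lists were seen. A lower density in the windows than in the flanks was therefore not tested. That of vehicle, 3.25 per Mb, lay below its exact bound but above the limit of 3.125 from 3 counts, so its reading depends on the limit. The exact bound is the upper end of a 95% interval that splits its error between both ends. The limit from 3 counts puts all of its error at the upper end, so these limits are unlike. HOXC supplied most of the flanking regions. Without the flanks of HOXC the densities were 1 vehicle, 4 dexamethasone and 2.67 estradiol regions per Mb, all below the exact bounds. Those bounds still came from all 4 windows, HOXC among them, so the sets are unlike. The HOXC window itself held 0 dexamethasone regions in 220 kb, beside 18 in its flanks. The bounds cover counting error only, and neighbouring regions are not independent.

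Empty stretches of this length were common in every list. On chromosomes 1 to 22 and X, of 13748 stretches of 220 kb, the length of the HOXA and HOXC windows, 88.5% held no vehicle region, 64.2% no dexamethasone region, 75.8% no estradiol region and 99.4% no combination region. For 310 kb, the length of the HOXB window, the shares were 84.6%, 56.1%, 69.3% and 99.2%, and for the 210 kb of HOXD 89.0%, 65.1%, 76.8% and 99.4%. A single dexamethasone region or none was found in 85.0% of the 220 kb stretches. The stretches include gene-poor and unmappable sequence.

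**Figure D3:**
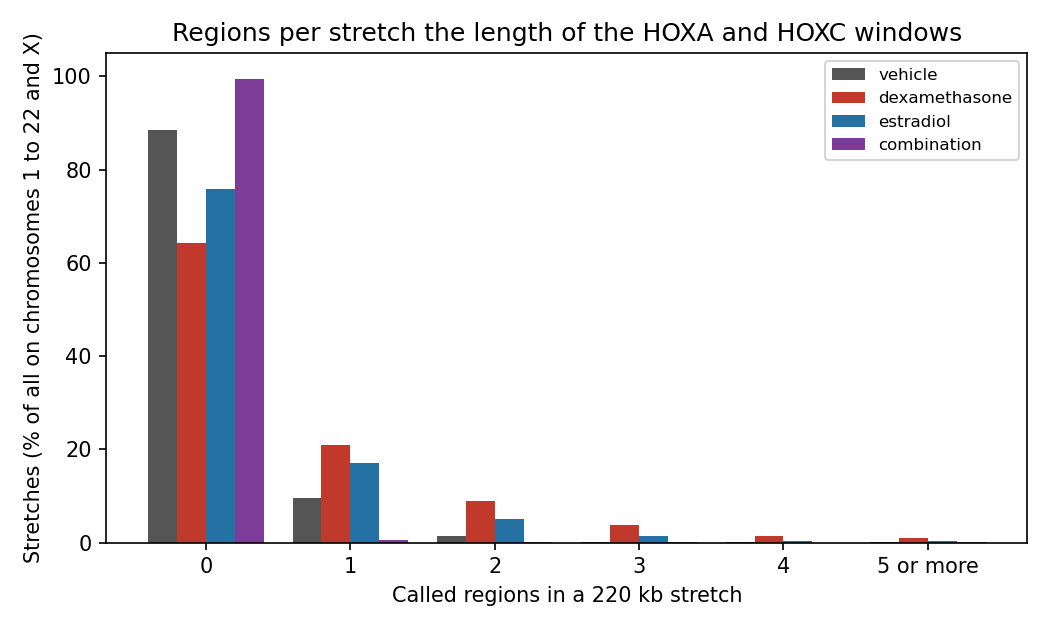
Share of 220 kb stretches on chromosomes 1 to 22 and X (y axis, %) by the number of called regions they hold (x axis), with 1 bar per library. The bars at 0 are the tallest for every library, 88.5% in the vehicle list, 64.2% in that of dexamethasone, 75.8% in that of estradiol and 99.4% in the combination list, which is where the HOXC window falls in all 4 libraries and the HOXA window in 3.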

How the data were processed

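Each library gave 1 peak table. Regions were called by MACS 2.1.0.20140616 for every library by itself and without a control, per the file headers, where the p cutoff is 1e-10, the local background is taken over 10000 bp and a position keeps at most 1 tag. Bowtie 1.1.2 and hg19 appear in the submitters' processing notes. The deposited pileup signal is the unscaled number of extended tags at the summit. The deposited fold enrichment is a ratio to local background, each with 1 added, and deposited p and q values are −log10. The q column is filled although the headers announce that it would not be.

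Window membership and overlap (at least 1 bp), exact Clopper-Pearson and Poisson intervals (95%, counting error only), limits of 3 counts for a count of 0, Poisson thresholds and counts in adjoining stretches of equal length were computed with scipy 1.17.1, pandas 2.3.3 and numpy 2.4.6 in Python 3.11.15. Window counting and overlap were tested on simulated data. Named regions are all members and the nearest region on either side of each window. The nearest regions, the flanks, the comparison at like strength, the thresholds, the stretches and the promoter search were chosen after the lists were seen. The windows, genes and motifs were chosen with earlier results of these data known. Motifs meant for the regions were searched in RefSeq promoters (GRCh38.p14) instead, and HOX cofactor genes, regulators and targets, which need hg19 positions, were not analysed here.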

Additional observations from a re-analysis of the deposited data

How the results depend on the processing

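Of 61 values under alternative settings, 49 stayed within the limits set for them and 12 did not. Many of the 49 were fixed in advance and are no measure of stability. A count of 0 stays 0 under a stricter score, a narrower window or a summit rule, and each share repeats its count. With −log10 q of at least 10, the dexamethasone list kept 7962 regions and the HOX windows held 0 of them, a share of 0% in place of 0.0119%, so that 0 remained without a vehicle region and 0 without an estradiol region. With lists of equal length, the strongest 1923 or 4772 dexamethasone regions by p-value, 0 lay in the windows in either case. These changes too were fixed by the scores of the HOXA region. Its −log10 q was 8.49, and only 80 of the 8428 dexamethasone regions had a smaller −log10 p. With windows extended by 500 kb on each side, a setting chosen after seeing the data, they held 13 vehicle, 31 dexamethasone, 20 estradiol and 0 combination regions, or 0.676%, 0.368%, 0.419% and 0% of the lists. A fold enrichment of at least 5, windows without the outer 50 kb, summits in place of overlap, an overlap of 50% of the shorter region and regions extended by 500 bp left every count as it was. No paired analysis was possible because each treatment had 1 library, and for the same reason no replicate could be left out.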
